A study of Mus musculus with 4 samples.

Results

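Integrins are the receptors that fix cells to the extracellular matrix, and the adaptors talin, kindlin, vinculin, ILK, PINCH, parvin, paxillin and zyxin tie their tails to actin at focal adhesions. The 36 genes described here encode 25 integrin chains and 11 of these adaptors. They were chosen by gene name in GENCODE M21, and all 36 were found among 21728 protein-coding genes of mouse build mm10. Around each gene, peaks of H3K27ac were read within 1 kb of its start sites and from 50 kb before to 50 kb after it. In the list of replicated peaks, 493 of 63061 peaks lay in these windows.

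H3K27ac, the acetylated form of lysine 27 on histone H3 that marks active promoters and enhancers, was immunoprecipitated from heart tissue and sequenced. All 4 libraries form 1 group: adult female B6CASTF1/J mice, a cross of C57BL/6J with CAST/EiJ, 2 months of age and without a named treatment. Replicate 1 and replicate 2 each combine 2 hearts' samples and were run as 2 technical replicates, and both carry 1 donor identifier, so the spread between them may be technical. Reads from the hybrid were placed on the C57BL/6J genome, and the part of strain variants in any value was not tested.

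An integrin is a pair of 1 alpha and 1 beta chain. The alpha chain mostly sets the ligand, whether collagen, laminin or the RGD motif of fibronectin and vitronectin. The short beta tail binds talin and kindlin, which switch the receptor on, and the ILK, PINCH and parvin complex then joins it to actin. In cardiomyocytes these proteins sit at costameres, which couple the sarcomere to the laminin around the cell. Talin-2 and the laminin receptor with the alpha chain of Itga7 are typical of striated muscle. Integrins with the beta chains of Itgb2 and Itgb7 belong to leukocytes.

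The sequences that the later results turn on come from 2 sources. RefSeq promoters (build GRCm38.p6, 250 bases before to 50 after a start) were found for 25 of the 36 genes, in 30 windows. None was matched for Itga6, Itga7, Itgae, Itgal, Itgb2, Itgb3, Itgb4, Parva, Tln2, Pxn and Lims2. Distal sequences are the 300 bases around the summit of a peak. Capitals mark the consensus sequences searched on both strands: the CArG box of SRF, the MEF2 site, GGAATG of TEAD factors, AGATAA of GATA factors, TGANTCA of AP-1, CCGGAAG of ETS factors and GGGCGG, the GC box of SP and KLF factors. Neighbouring GC boxes can share a base, and CArG and MEF2 sites can share A and T letters.

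Vcl encodes vinculin and Fermt2 encodes kindlin-2, and both promoters carried a CArG box and GC boxes. In Fermt2 the whole window lay under a peak. In Vcl the CArG box lay under a peak with a fold of 12.9, the start itself under one with a fold of 22.6, and the GC boxes in the gap between them. The promoter of Itgb1, the beta chain shared by most matrix receptors, carried a TEAD sequence. They are shown because these 3 genes stand at the core of the adhesion and held such a match, and were thus picked for it as well. The promoter of Tln1, also a core gene, held none of the sequences marked here. That of Ilk held ETS and GC box sequences, and neither is shown. The windows are chr14:20929148-20929447 on the plus strand for Vcl, chr14:45530016-45530315 on the minus strand for Fermt2 and chr8:128685404-128685703 on the plus strand for Itgb1.
Vcl promoter: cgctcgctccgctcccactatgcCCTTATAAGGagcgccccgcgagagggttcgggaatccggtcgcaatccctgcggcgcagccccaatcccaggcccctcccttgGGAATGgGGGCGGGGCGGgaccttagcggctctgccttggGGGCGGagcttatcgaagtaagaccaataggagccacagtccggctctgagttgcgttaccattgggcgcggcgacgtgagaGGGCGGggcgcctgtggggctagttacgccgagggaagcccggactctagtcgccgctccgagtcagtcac
Fermt2 promoter: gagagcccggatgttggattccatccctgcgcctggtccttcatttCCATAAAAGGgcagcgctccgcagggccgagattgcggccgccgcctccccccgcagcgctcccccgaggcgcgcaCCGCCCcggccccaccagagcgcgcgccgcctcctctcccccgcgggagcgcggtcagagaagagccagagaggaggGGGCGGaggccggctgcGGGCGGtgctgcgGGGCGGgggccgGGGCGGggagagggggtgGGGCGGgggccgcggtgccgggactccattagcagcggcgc
Itgb1 promoter: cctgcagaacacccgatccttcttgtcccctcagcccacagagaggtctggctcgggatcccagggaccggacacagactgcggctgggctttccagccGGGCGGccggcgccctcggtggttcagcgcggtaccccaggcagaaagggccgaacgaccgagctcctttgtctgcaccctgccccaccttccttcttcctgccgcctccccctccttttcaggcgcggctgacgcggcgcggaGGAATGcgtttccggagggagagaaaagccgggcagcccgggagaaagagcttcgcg

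Itgb6 and Itga10 are shown for contrast. Itgb6 encodes a beta chain that pairs with the alpha chain of Itgav. Its upstream start, at chr2:60722554-60722853 on the minus strand, lay under a peak and held none of the 7 marked sequences. Its downstream start, at chr2:60673644-60673943 on the same strand, held a CArG box and had no peak. Itga10 encodes a collagen receptor chain known from cartilage, and its promoter at chr3:96645334-96645633 on the plus strand held a MEF2 and a TEAD sequence without a peak.
Itgb6 upstream promoter: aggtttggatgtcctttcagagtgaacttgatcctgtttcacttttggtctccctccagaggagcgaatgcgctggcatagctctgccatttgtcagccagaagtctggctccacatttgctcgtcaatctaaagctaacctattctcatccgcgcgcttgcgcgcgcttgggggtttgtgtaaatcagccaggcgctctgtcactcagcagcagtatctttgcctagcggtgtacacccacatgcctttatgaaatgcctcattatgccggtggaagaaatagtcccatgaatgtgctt
Itgb6 downstream promoter: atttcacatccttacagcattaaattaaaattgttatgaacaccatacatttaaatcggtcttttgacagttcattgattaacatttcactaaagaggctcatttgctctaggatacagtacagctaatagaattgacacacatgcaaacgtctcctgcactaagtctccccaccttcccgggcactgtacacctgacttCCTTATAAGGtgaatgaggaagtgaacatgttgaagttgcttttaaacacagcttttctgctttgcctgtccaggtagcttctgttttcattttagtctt
Itga10 promoter: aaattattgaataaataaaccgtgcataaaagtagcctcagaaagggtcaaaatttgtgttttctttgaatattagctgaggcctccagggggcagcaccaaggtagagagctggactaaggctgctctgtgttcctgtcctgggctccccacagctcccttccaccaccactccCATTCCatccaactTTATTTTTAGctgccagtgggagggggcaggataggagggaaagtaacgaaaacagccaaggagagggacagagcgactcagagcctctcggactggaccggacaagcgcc

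Peaks inside introns of Itga9, Parvb and Tln2 are shown because each was the strongest distal peak of its gene and held a consensus sequence. They were thus picked for such a match. The strongest distal peaks of Pxn, Lims1 and Itga7, of a like rank in fold, held none of the 7 marked sequences and are not shown. All are given on the plus strand, at chr9:118731914-118732213 for Itga9, chr15:84235284-84235583 for Parvb and chr9:67529341-67529640 for Tln2. The Parvb sequence held a pair of TEAD sequences and the Tln2 sequence held 1.
Itga9 intronic peak: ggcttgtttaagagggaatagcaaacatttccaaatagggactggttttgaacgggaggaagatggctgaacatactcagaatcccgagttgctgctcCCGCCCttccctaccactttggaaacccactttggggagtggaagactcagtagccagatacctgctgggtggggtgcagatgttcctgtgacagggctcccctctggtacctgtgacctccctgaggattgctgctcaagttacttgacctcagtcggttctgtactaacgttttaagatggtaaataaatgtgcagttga
Parvb intronic peak: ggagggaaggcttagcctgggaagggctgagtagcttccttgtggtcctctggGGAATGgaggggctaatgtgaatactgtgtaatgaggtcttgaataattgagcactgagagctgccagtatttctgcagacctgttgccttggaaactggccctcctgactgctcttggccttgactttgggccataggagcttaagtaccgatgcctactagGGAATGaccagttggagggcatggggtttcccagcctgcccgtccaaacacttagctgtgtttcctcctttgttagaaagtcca
Tln2 intronic peak: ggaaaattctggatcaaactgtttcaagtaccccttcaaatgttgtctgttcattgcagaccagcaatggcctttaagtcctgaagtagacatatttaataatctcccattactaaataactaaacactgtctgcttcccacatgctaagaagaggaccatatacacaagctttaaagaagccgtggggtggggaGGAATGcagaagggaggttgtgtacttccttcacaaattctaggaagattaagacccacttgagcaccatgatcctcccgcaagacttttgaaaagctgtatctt

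These matches are a description of letters, not of bound sites. A CArG box stood in 3 of the 30 member promoters (10%), against 304 of 20061 promoters of all genes (1.52%), and the 3 belong to Fermt2, Itgb6 and Vcl. TEAD sequences stood in 3 of 30 member promoters (10%), against 13.4% of all promoters. GC boxes stood in 15 of 30 (50%), against 48.0%, and ETS sequences in 3 of 30 (10%), against 11.9%. MEF2 sites were present in 2 of 30 (6.67%), against 2.56%. AP-1 sequences stood in 4 of 30 (13.3%), against 7.00%, and GATA sequences in 3 of 30 (10%), against 9.42%. Among the 300-base windows at distal peaks inside the members, TEAD sequences stood in 30 of 171 (17.5%), against 17.2% of 37273 distal peaks, and MEF2 sites in 7 (4.09%), against 4.67%. The CArG, MEF2, TEAD, AP-1, GATA, ETS, TATA and NFI counts at promoters rest on few genes. The 3 ETS windows belong to Ilk and Itga3 alone, and the 3 GATA windows to Itgax and Lims1. Both windows of Ilk overlap and share their ETS sequence.

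The tissue label was checked against marker genes. Promoter peaks were present at 8 of 8 cardiomyocyte genes, 6 of 6 endothelial and 6 of 6 fibroblast genes. They were present at 1 of 10 leukocyte, 1 of 8 platelet and megakaryocyte and 0 of 6 epithelial genes. Over all protein-coding genes the share was 57.3%. Among the strongest cardiomyocyte genes, Actn2 had 36.4 kb of peaks in its window and Myh6 29.9 kb. At Ptprc, the pan-leukocyte gene, the replicated list and that of replicate 1 had no promoter peak and that of replicate 2 had 1. Heart tissue mixes cell types, so a weak peak can come from few cells or from little acetylation per cell, and these cannot be told apart.

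Most adhesion genes had an acetylated promoter. A peak lay within 1 kb of a start site at 28 of 36 members (77.8%), against 57.3% of all protein-coding genes. At the 5′ end itself the count was 25 of 36, against 53.7%. All 11 adaptors had a promoter peak, and so did 17 of 25 integrin chains. In the list of replicate 1 the count was 26 of 36 members, against 55.7% of all genes, and in the list of replicate 2 it was 29, against 58.4%. The 26 members called in replicate 1 were called in replicate 2 as well. Any peak within 50 kb was found at every member but Itgax, against 79.1% of all genes.

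**Figure D1:**
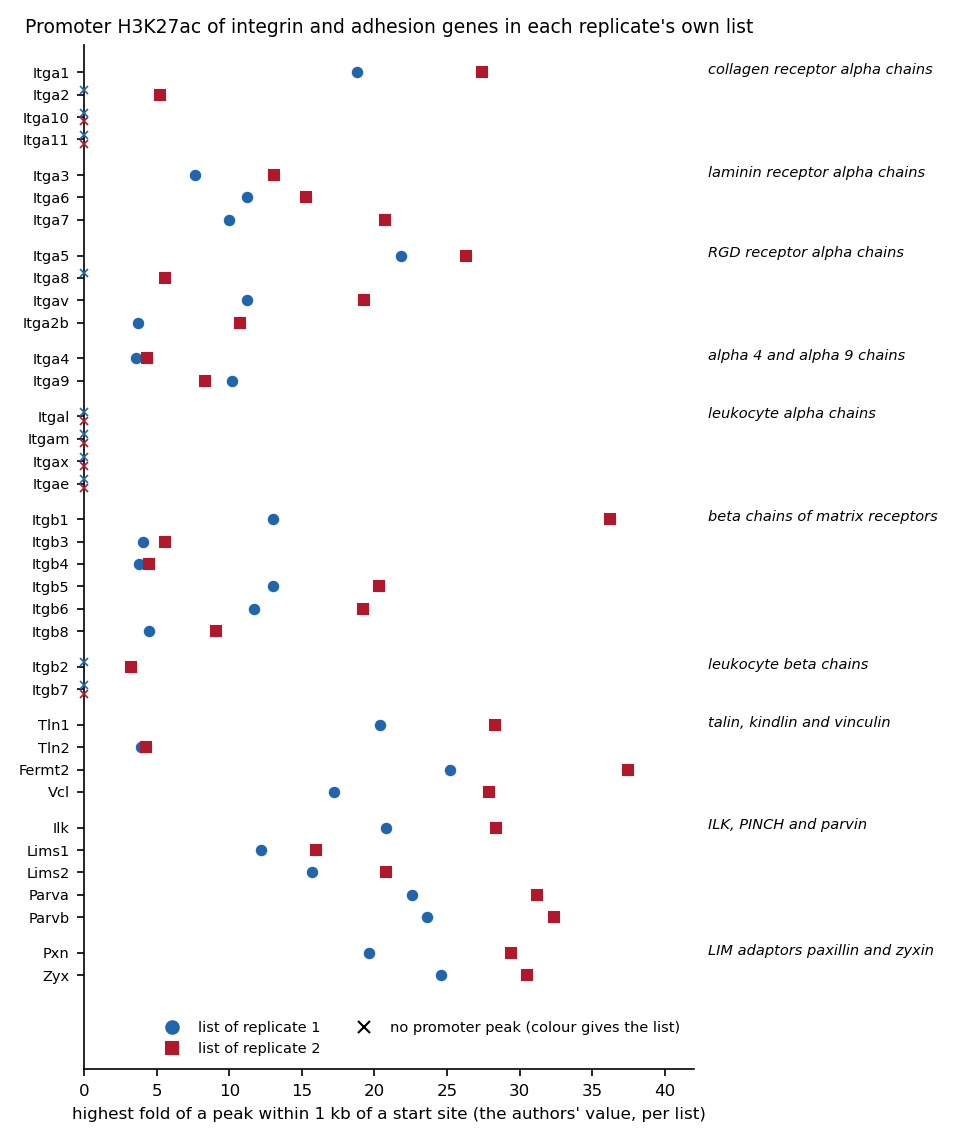
Highest fold of a peak within 1 kb of a start site of each member (x axis, the authors' value, no unit), in the list of replicate 1 (blue circles) and of replicate 2 (red squares), with crosses at 0 where a list has no promoter peak. Adaptors other than Tln2 lie at 12.2 or above in both lists, whereas the leukocyte chains have no promoter peak but for Itgb2 in replicate 2. Folds of different lists share no scale.

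Leukocyte chains and the other integrin chains gave different counts. None of the 6 leukocyte chains had a promoter peak in the replicated list, while 17 of the other 19 did. The 2 without were Itga10 and Itga11, both collagen receptor chains. Fold values below are the authors' ratio for a peak, taken from the column order of the file format to be enrichment over a control, and can be compared only within 1 list. Unless 1 start is named, single-replicate folds and widths are the highest at any start of a gene. The peak can thus differ between lists. The highest promoter fold had a median of 15.3 over the 28 acetylated members, against 13.2 over all acetylated genes. It was 24.2 for the adaptors and 8.48 for the integrin chains, and 16 of the 28 members lay above the median of all genes.

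Among the collagen receptor chains, Itga1 had the strongest promoter peak. The peak had a fold of 22.8 and a width of 3.92 kb in the replicated list, 18.8 in the list of replicate 1 and 27.4 in that of replicate 2. A start of the coding gene Gm49395 also lies within 1 kb of one of Itga1, so the peak cannot be assigned to 1 of them. Another 3.54 kb peak with a fold of 17.0 lay inside the gene at the start of Pelo, a ribosome rescue gene nested in it. Itga2, a collagen receptor known from platelets and epithelia, had a peak of 0.226 kb with a fold of 4.27, which was found in the list of replicate 2 (5.23) and not in that of replicate 1. Itga10, and Itga11, which encodes a fibroblast receptor for fibrillar collagen, had no peak at a start site or inside the gene in the replicated list.

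All 3 laminin receptor alpha chains had a promoter peak. Itga7, the laminin receptor chain of muscle, had a fold of 13.7, with 9.96 in the list of replicate 1 and 20.7 in that of replicate 2. Its start lay inside a 3.38 kb peak, near the edge of that peak. The stronger peak, 2.84 kb wide, ended at -0.118 kb and had its summit at -1896 bp, both upstream of the start. A further intronic peak 5.20 kb into the gene had a fold of 11.0. The signal therefore stretched over several kb on both sides of the start. Itga6, found on endothelium and epithelium, had a fold of 13.1, with 11.2 in replicate 1 and 15.3 in replicate 2, and Itga3, known from epithelia, had 8.48, with 7.65 and 13.1.

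Chains that bind the RGD motif varied widely. Itga5, the fibronectin receptor chain, had a promoter fold of 23.8 and a width of 4.46 kb, with 21.8 in the list of replicate 1 and 26.3 in that of replicate 2. The widest peak at any Itga5 start measured 3.31 kb in replicate 1 and 7.77 kb in replicate 2, which may be another peak. Peaks covered 50.2% of the length of Itga5. Itgav, which pairs with 5 beta chains, had a fold of 15.3 but only 3.85 kb of peaks in its whole window. Itga8 had a fold of 5.02 and was missed in replicate 1. Itga2b, the platelet fibrinogen receptor chain, had peaks only at internal noncoding starts, with a fold of 6.20. The nearest peak to its coding start lay 2.02 kb away.

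The alpha chains of Itga4 and Itga9 form a subfamily of their own, with receptors for VCAM-1, fibronectin and tenascin. Itga4, best known from leukocytes, had the weakest promoter fold of the 28 members, 3.24, with 3.57 in the list of replicate 1 and 4.29 in that of replicate 2. That peak was the only one in its window. Itga9, known from lymphatic endothelium and muscle, was the opposite. Its promoter fold was moderate at 7.49, with 10.2 and 8.34 in the lists of replicate 1 and 2, but its window held 44 peaks over 41.5 kb. That length was above that of 99.1% of all genes and was the most of any member, and 31 of the peaks were distal ones inside the gene. Itga9 is 294 kb long, and as a share of its window the peaks covered 10.5%, above 82.9% of genes but less than the 24.6% at Itga5 or 24.2% at Pxn.

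Beta chains of matrix receptors all had a promoter peak. Itgb1, the partner of most alpha chains listed here, had a fold of 15.3 and a width of 3.57 kb. The list of replicate 1 gave 13.0 and that of replicate 2 gave 36.2 for Itgb1. Itgb5, a vitronectin receptor chain, had 15.5, with 13.0 in replicate 1 and 20.3 in replicate 2. Itgb6 had a fold of 15.2, with 11.7 in replicate 1 and 19.2 in replicate 2, and a summit 1696 bp downstream of the start. The widest peak at any of its starts measured 5.12 kb in the replicated list, 1.5 kb in replicate 1 and 5.20 kb in replicate 2. Itgb8, which helps activate latent TGF-beta, had 6.07, and the platelet chain of Itgb3 had 4.58. Itgb4, the hemidesmosome chain of epithelia, had 3.70.

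Leukocyte chains had no promoter peak in the replicated list. Itgal, Itgam, Itgax and Itgae encode the alpha chains, and Itgb2 and Itgb7 the beta chains. Itgb2 had a small promoter peak of 0.235 kb with a fold of 3.22 in the list of replicate 2. Around the 8 members without a promoter peak, the 6 leukocyte chains, Itga10 and Itga11, the replicated list held 50 peaks, of which 32 lay within 1 kb of another gene's start and 2 inside the member. In the Itgb7 window, the strongest peak, with a fold of 20.8, lay at Rarg. In the Itgal window, the strongest, with 39.9, lay at Zfp768. The longest of these windows, 18.6 kb at Itgb7, held 15.4 kb of peaks upstream, 2.91 kb downstream and 0.279 kb inside the gene. The count of peaks at another gene's start varied, from 8 of 8 at Itga10 over 6 of 11 at Itgb7 to 1 of 6 at Itga11 and 0 of 1 at Itgam. Which genes the peaks serve was not tested. Among the 10 leukocyte markers, a promoter peak was present at 1 in replicate 1 and at 3 in replicate 2, and their part in these calls was not tested.

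**Figure D2:**
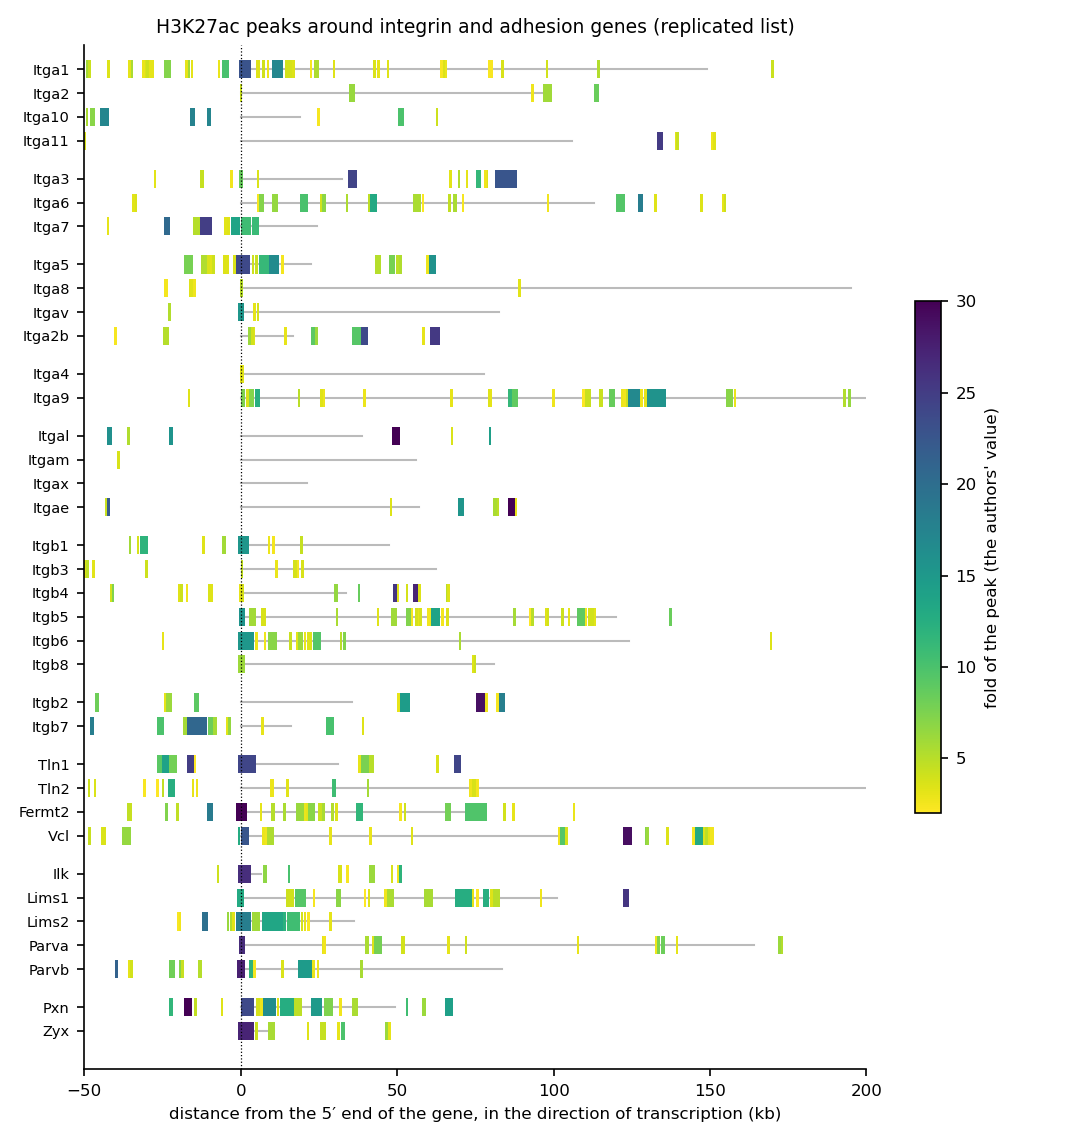
Peaks of the replicated list around each member, by distance from the 5′ end in the direction of transcription (x axis, kb). Grey lines are gene bodies and the colour of a block is the fold of the peak. Strong blocks stand at 0 for most adaptors and many lie inside Itga9, Itgb5, Lims1 and Pxn, whereas the bodies of Itgal, Itgam, Itgax and Itgb2 are empty.

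Talin, kindlin and vinculin, which link the beta tail to actin, had strong promoters with 1 exception. Fermt2 had the highest promoter fold of all members, 30.03, above 96.6% of acetylated genes, with 25.2 in the list of replicate 1 and 37.5 in that of replicate 2. Tln1, the ubiquitous talin, had 24.2, with 20.4 and 28.3. Its widest promoter peak measured 5.69 kb in the replicated list, 2.88 kb in replicate 1 and 6.08 kb in replicate 2. Its start lies within 1 kb of that of Creb3, so the peak cannot be assigned to 1 of them. Vcl had 22.6, with 17.2 and 27.9. The exception was Tln2, the talin enriched in striated muscle, with 3.79.

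Tln2 differed in where its peaks stood. None of its coding starts in GENCODE had a peak within 1 kb, and the peak of fold 3.79 lay at a noncoding start 298 kb into the gene. The nearest peak to its GENCODE 5′ end was 9.38 kb away. RefSeq places its first start 74.3 kb further upstream, outside the 50 kb window. That start lay inside a 1.97 kb peak with a fold of 8.33, with 7.91 in the list of replicate 1 and 8.76 in that of replicate 2. RefSeq marks that start as predicted. Other strong peaks of Tln2 lay 22.1 kb upstream of the GENCODE 5′ end (fold 12.4) and 30.2 kb into the gene (fold 10.7, the intronic sequence printed above).

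The ILK, PINCH and parvin complex was acetylated at all 5 genes. Parvb, a parvin of heart and skeletal muscle, had a fold of 27.5, with 23.6 in the list of replicate 1 and 32.4 in that of replicate 2. Parva, the widely expressed parvin, had 26.6, with 22.6 and 31.2, and Ilk, the scaffold pseudokinase, had 26.3, with 20.8 and 28.4. The widest promoter peak of Ilk measured 4.29 kb in the replicated list, 2.57 kb in replicate 1 and 4.48 kb in replicate 2. The Ilk promoter is shared with Rrp8. The PINCH genes were lower in fold but broad. Lims1 had 13.0, with 12.2 and 16.0, and Lims2 had 18.1, with 15.7 and 20.8. The widest promoter peak of Lims2 in the replicated list stood at an internal start and measured 6.61 kb. The widest at any Lims2 start measured 4.81 kb in replicate 1 and 12.3 kb in replicate 2, which may be another peak. Both LIM adaptors were strong as well, with 27.2 over 5.0 kb at Zyx, which encodes zyxin, and 23.8 over 4.22 kb at Pxn, which encodes paxillin.

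Several members had more than 1 acetylated start. Separate coding starts over 5 kb apart, each with a peak of its own, were found at 5 of 36 members, against 4.21% of all genes. These were Itgb5, Lims1, Lims2, Fermt2 and Pxn. In Lims1 the starts lay 70.9 kb apart, with folds of 13.0 at the upstream and 12.6 at the downstream one, where the peak was 5.40 kb wide. In Itgb5 a coding start 62.3 kb inside the gene had a fold of 13.8, against 15.5 at the 5′ end. Pxn had 23.8 at its 5′ end and 5.59 at a coding start 36.2 kb further on, and Fermt2 had 30.03 and 4.06 at starts 52.3 kb apart. A peak at an internal start can also be an enhancer there, and the lists do not separate these.

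Other members had coding starts both with and without a peak. Coding starts of Itga6 that had a peak lay 41.3 and 41.4 kb from the 5′ end, and the noncoding upstream start had none within 5.37 kb. In Itgb6 the upstream start had a peak, as did noncoding starts 17.0 and 17.1 kb into the gene (fold 4.36), while the coding starts 48.9 kb downstream had none within 15.3 kb. At RefSeq starts the count of members with a peak was 27 of 36, against 56.3% of all RefSeq protein-coding genes, with Itga2b the 1 member lost. RefSeq also had 16 starts of 9 members that lay over 1 kb from any GENCODE start. A peak was present at 9 of these, in Itga7, Tln2, Lims1 and Pxn. Some of these starts share a peak, as in Tln2 and Lims1. Those of Itga7 and 1 of Lims1 lay under peaks already found at GENCODE starts. The share of such starts with a peak over all genes was not computed.

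**Figure D3:**
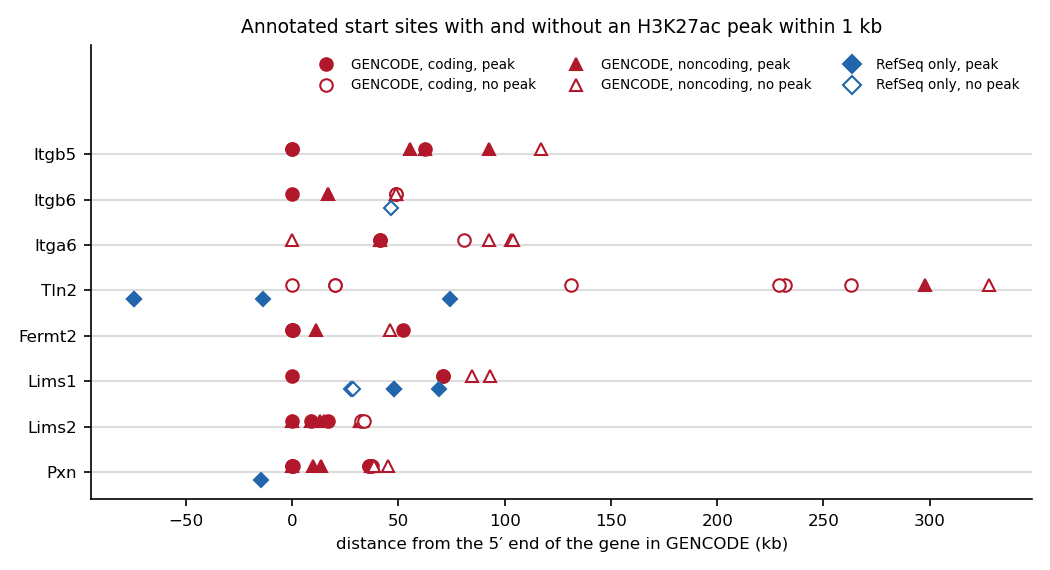
Annotated start sites of 8 members by distance from the GENCODE 5′ end (x axis, kb). Circles are coding and triangles noncoding GENCODE starts, diamonds are RefSeq starts over 1 kb from any of these, and filled symbols have a peak of the replicated list within 1 kb. Lims1 and Itgb5 have filled circles at 70.9 and 62.3 kb, and for Tln2 a filled diamond lies 74.3 kb upstream and no circle is filled.

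Acetylation around the members went beyond promoters. The length covered by peaks in the window had a median of 13.6 kb over the 36 members, against 4.39 kb over all genes. It was 21.6 kb for the adaptors and 10.7 kb for the integrin chains, and 29 of 36 members lay above the median of all genes and 25 in the upper 25%. In every member the length was greater in the list of replicate 2 than in that of replicate 1. Medians were 11.7 kb in replicate 1, against 3.60 kb for all genes, and 17.6 kb in replicate 2, against 5.37 kb, so that shift was shared by all genes. The window length also counts promoters of the member and of neighbouring genes. Itgb7, Itgb2 and Itga10, without a promoter peak, lay above 90.2%, 82.8% and 75.2% of genes in window length. Inside these genes peaks covered 0.279, 0 and 0 kb.

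Members are long genes, with a median length of 59.7 kb, against 17.4 kb, and longer genes have longer windows. As a share of the window, peaks covered a median of 9.46% at the members, against 3.20% at all genes. Among genes of at least 30 kb, the median window length was 13.3 kb for 28 members, against 5.43 kb for 7628 genes, and 82.1% of these members, against 70.8% of these genes, had a promoter peak. Inside the gene body, peaks covered a median of 4.42 kb in members, against 0.614 kb. Genes with the most coverage of their own body were Zyx (65.5%), Ilk (53.8%), Pxn (53.8%) and Lims2 (52.9%).

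**Figure D4:**
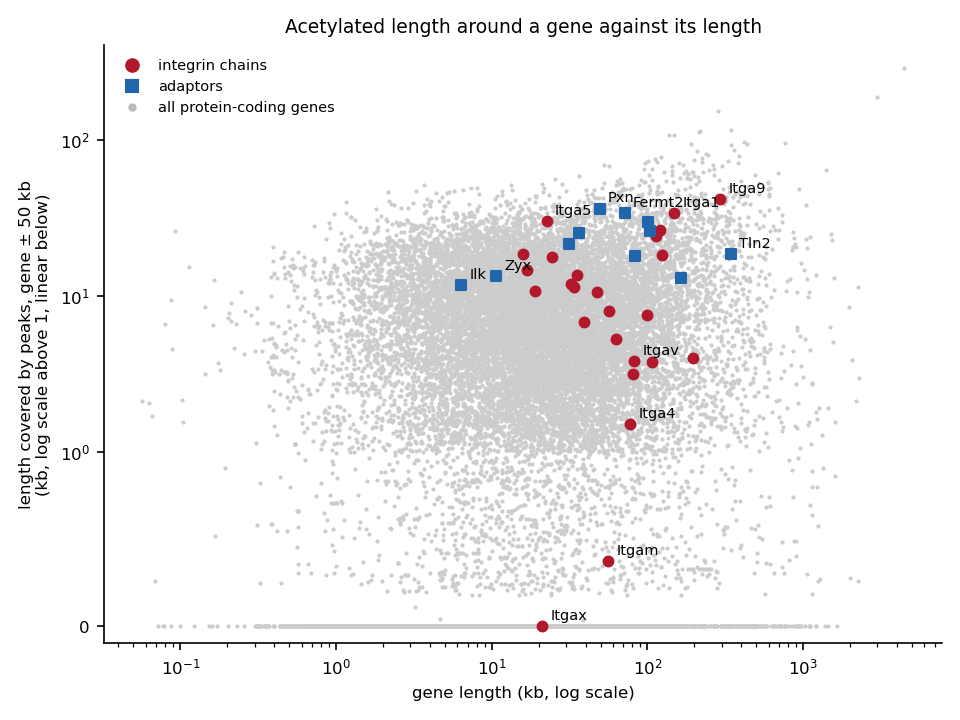
Length covered by peaks within 50 kb of a gene (y axis, kb, log scale above 1 and linear below) against gene length (x axis, kb, log scale), for integrin chains (red circles), adaptors (blue squares) and all protein-coding genes (grey). All 11 adaptors lie at 11.8 kb or above, and Itgax lies at 0.

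Distal peaks inside the members numbered 171. The strongest of each gene ranked high among all 37273 distal peaks for some members. The intronic peak of Itga9 printed above, 125 kb from the 5′ end and 4.07 kb wide, had a fold of 16.8, above 99.1% of distal peaks. In Pxn a 3.78 kb peak 24.9 kb into the gene had 14.8, and in Lims1 a peak 78.4 kb into the gene had 12.4. The Parvb peak lay 3.39 kb from the start with a fold of 11.9, and those of Itga7 and Tln2 had 11.0 and 10.7. These 6 were in introns and were present in the lists of both replicates.

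The next 4 were weaker. Itgb6 had 9.47 at 24.1 kb, Vcl had 9.46 in an exon 102 kb from its start, Itgb5 had 8.91 at 108 kb and Parva had 8.25 at 135 kb. All 4 were found in both replicates too. Of the distal peaks inside members, 117 of 171 (68.4%, exact 95% interval 60.9 to 75.3) overlapped a peak in each of the single-replicate lists, against 66.2% of all distal peaks. Among promoter peaks of members, 46 of 57 (80.7%, 68.1 to 90.0) did so, against 87.5% of all peaks within 1 kb of a start. Over all window peaks the share was 364 of 493 (73.8%, 69.7 to 77.7), against 73.0% of all peaks. Of the window peaks not shared, 91 were found in replicate 2 alone and 15 in replicate 1 alone. These intervals cover counting only, and the number of reads behind a peak is unknown.

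An integrin needs both chains, so the promoters were read in pairs. Of 23 known heterodimers, 16 had a peak at both genes. With starts of coding transcripts only the count was 15, since the pair of Itga2b and Itgb3 dropped out. Both chains were acetylated in 10 of 12 pairs with Itgb1, the exceptions being Itga10 and Itga11, and in 5 of 5 pairs with Itgav. The 3 pairs with Itgb2 and the pair of Itgae with Itgb7 had neither promoter acetylated. In the pair of Itga4 with Itgb7 the alpha gene alone had a peak. All these pair counts follow from the calls at single genes. Since Itgb1 and Itgav each had a peak, their pair counts are those of their partners. Among all protein-coding genes 57.3% had a promoter peak, and no share over other gene pairs was computed, so pairing itself was not tested.

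CpG content at coding starts went with the promoter calls. The ratio of observed to expected CpG was taken in the 500 bp around each coding start, and the highest of a gene was kept. Genes with more coding starts thus have more chances of a high ratio. This ratio had a median of 0.825 over the 28 members with a promoter peak, against 0.826 over all genes with one. It was 0.319 over the 8 members without a peak, against 0.266 over all genes without. Fermt2 had the highest ratio of the members, 1.12, and Itgae the lowest, 0.0861. Exceptions were Itga2b, with a peak and a ratio of 0.237, and Tln2, with 0.318 as the highest over its 7 GENCODE coding starts. The highest ratio without a peak was 0.520, at Itga11. The part of CpG content in the calls was not tested.

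**Figure D5:**
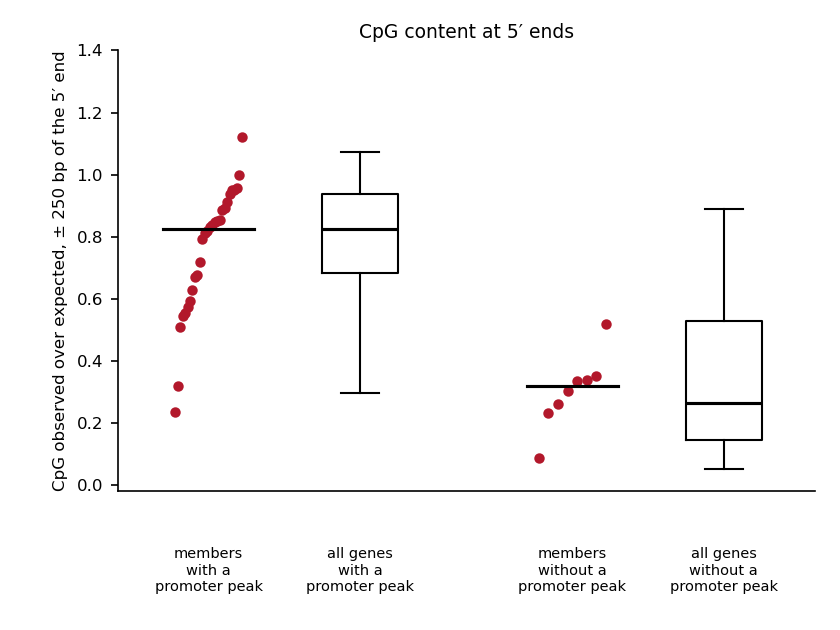
Highest ratio of observed to expected CpG in 500 bp around any coding start of a gene (y axis). The title and the y axis name the 5′ end, but the values are those of coding starts. Red points are members with and without a promoter peak (28 and 8 genes, black line the median). Boxes are all genes of the same kind (quartiles and median, whiskers the 5th and 95th percentile). Members without a peak lie at 0.520 or below, and members with a peak spread from 0.237 to 1.12.

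The wider adhesion machinery and the ligands gave a like picture. Of 33 other focal adhesion genes, 31 (93.9%) had a promoter peak, against 57.3% of all protein-coding genes. These 31 had a median fold of 15.7, against 13.2 over all acetylated genes. The 33 had a median window of 13.7 kb, against 4.39 kb. Among them Actn4, an actin crosslinker, had 53.1 kb of peaks, Lpp, a zyxin relative, 44.9 kb, Fhl2, a LIM protein of heart muscle, 35.3 kb and Rap1a, a small GTPase that promotes talin recruitment, 34.9 kb. Fermt1, the kindlin of epithelia, and Pak1 had no promoter peak. Of 25 integrin ligand genes, 20 (80.0%) had a promoter peak, against 57.3% of all protein-coding genes. The neighbouring collagen IV genes Col4a2 and Col4a1 had 108 and 72.1 kb of peaks in overlapping windows, and share a promoter peak with a fold of 31.3. Lamc1, a laminin chain, had 34.5 kb and Fbn1, which encodes fibrillin-1, had 28.6 kb. Ligands without a promoter peak were Cdh1, the ligand of the Itgae pair, Madcam1, the ligand of the Itga4 and Itgb7 pair, Npnt, a ligand of the Itga8 pair, Spp1 and Tnc.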

How the data were processed

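The 4 deposited peak lists hold H3K27ac peaks on mm10, per the labels and the file lists deposited beside the libraries. One holds replicated peaks of both biological replicates, one pseudoreplicated peaks of both together, and one each those of replicate 1 and replicate 2. Technical replicates had been joined, so no list has a value per library. The fold is the authors' deposited ratio for a peak, with no control named in the lists, and the −log10 q is the authors' deposited value; both were used only within a list. The aligner and the caller were not given in the sources used here. Depth is unknown. Of the 63061 replicated peaks, 1332 had q above 0.05.

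Genes, starts and bodies came from GENCODE M21, and further starts, promoters and sequence from RefSeq (GRCm38.p6). A promoter peak overlaps the 1 kb on either side of a start, distal peaks are further than 2.5 kb from all starts, and peaks were called shared at an overlap of 1 bp. Counting was done with Python 3.11.15, NumPy 2.4.6 and pandas 2.3.3, intervals with SciPy 1.17.1, and was tested on simulated data first. With 1 group there is no contrast of samples and no test; counts and medians stand beside those of all protein-coding genes. The text accounts for all 36 members. Of the other lists it names up to 4 genes that have a promoter peak, by acetylated length, and up to 4 that lack one, alphabetically. Spp1, Tnc, the neighbours and the RefSeq starts were named after their values were seen. The members and lists were chosen with earlier results of these data known. One further marker gene that the naming rule selects is not reported here.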

Additional observations from a re-analysis of the deposited data

How the results depend on the processing

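Of 39 recomputed values, 35 stayed close to those reported: counts within 1.5 times, medians within 1 SD, taken over the single-replicate medians, and shares within their interval. Among the 35 are the 4 single-replicate medians that set this SD, so their closeness says nothing. Median length was 9.85 kb for peaks at or above the median fold and 11.4 kb with a window of 25 kb. The median acetylated length moved most, since it depends on which peaks are credited to a gene. It was 24.3 kb with a window of 100 kb, against 8.38 kb for all genes. It was 4.85 kb for peaks nearest to the member, against 0.923 kb, and 4.42 kb for peaks inside the gene body, against 0.614 kb. The share of window peaks in both replicates was 49.9% when each peak had to overlap by 50%, against 51.0% for all peaks. Counts of members with a promoter peak ran from 24, with peaks at or above the median fold, to 29, in the list of replicate 2. RefSeq starts (27 members), the covered share of the window and genes of 30 kb or longer (13.3 kb) were chosen after seeing the data. No paired analysis was possible because all libraries form 1 group. The lists give no reads, so a missing peak at a weak gene such as Itgb2 says only that none was called.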
